A study of Mus musculus with 6 samples.

Results

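The genes described here were the mouse vomeronasal receptor genes that lie on autosomes other than chromosome 7. They were all protein-coding genes of the mm10 gene table on those chromosomes with a symbol starting Vmn1r or Vmn2r. The table held 176 of them, and 173 had a midpoint in a 50 kb bin that carried a subcompartment label in every library. Those 173 were 104 V1R genes (Vmn1r) and 69 V2R genes (Vmn2r), out of 20375 protein-coding autosomal genes placed in the same way. Vmn2r122, Vmn2r-ps130 and Vmn1r238 had no such bin and have no value below. The split of the family at chromosome 7 was chosen by measured values, the ranks of Brg1KD against control libraries in earlier results of these data, in which the receptor genes of chromosome 7 stood higher in Brg1KD. Differences between Brg1KD and control are therefore given as a description and support nothing here. No p is given for them.

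The study measured genome folding by Hi-C, which ligates crosslinked DNA ends and sequences the joined pairs, in E14TG2a (E14) mouse embryonic stem cells. This is a male line of wild type genotype kept in serum and LIF. Brg1KD cells had received short interfering RNAs made by RNase III digestion (esiRNAs) against Smarca4, the gene for the BAF complex ATPase BRG1, Ino80KD cells esiRNAs against Ino80, the ATPase of the INO80 complex, and control cells esiRNAs against EGFP. Each group had 2 libraries, all harvested 48 h after transfection, and the replicate number was also a batch label. All groups were thus transfected cells of a single line, and no untransfected sample was used. The files hold no transcript levels, so neither the knockdown nor the expression of any receptor could be checked.

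V1R and V2R proteins are G protein-coupled receptors of the vomeronasal organ, where they detect pheromones and other social odours. V1R receptors act in apical sensory neurons through the G protein subunit encoded by Gnai2, and V2R receptors in basal neurons through that encoded by Gnao1. The genes lie in tandem clusters made by repeated duplication, and each neuron expresses few of them. In embryonic stem cells they are outside their tissue of use, and such clusters are known to sit in compact, late-replicating B chromatin.

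Each library's file labelled the autosomes with 8 subcompartments, written here as ranks. They run from 1 for B.2.2, the most inactive, through B.2.1, B.1.2, B.1.1, A.2.2, A.2.1 and A.1.2 to 8 for A.1.1, the most active. A mean rank is the mean over genes of these ranks in a library, and a difference of 1 is 1 class. Read depth is unknown from these files, and nothing in the labels says that the replicates were separate cultures, so the spread between them may be technical. All 8 stem cell marker genes, among them Pou5f1, Sox2 and Nanog, had rank 7 or 8 in all 6 libraries. These ranks cannot check the cell type, because 67.8% of all genes were in A in all 6 libraries. Of the fibroblast markers, Col1a1 and Thy1 were in A and Col1a2 and Col3a1 in B in all 6.

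The receptor genes were in inactive chromatin in every group. Of the 173, 164 (94.8%) were in B in all 6 libraries, against 24.5% of all genes, and 77 (44.5%) were in B.2.1 or B.2.2, together called B.2 here, in all 6, against 10.5% of all genes. The mean rank was 2.31 and 2.05 in the Brg1KD libraries, 2.25 and 1.72 in the Ino80KD libraries, and 2.36 and 2.01 in the control libraries. As group means it was 2.18 ± 0.184 in Brg1KD, 1.99 ± 0.372 in Ino80KD and 2.18 ± 0.253 in control cells (SD, n = 2 each). The 3 groups overlapped, and each replicate 1 lay above every replicate 2. Over all genes the mean rank was 5.89 ± 0.0278 in Brg1KD, 5.87 ± 0.0192 in Ino80KD and 5.89 ± 0.0193 in control cells (SD, n = 2 each), so the receptor genes lay more than 3 classes lower in every library.

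The share of receptor genes in B.2 varied widely between replicates. It was 53.2% and 75.7% in the Brg1KD libraries, 61.3% and 89.6% in the Ino80KD libraries and 60.1% and 69.9% in the control libraries. In each group replicate 2 held the larger share. The highest share was that of the second Ino80KD library and the lowest that of the first Brg1KD library. Over all genes the same share lay between 13.6% and 16.2%.

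**Figure D1:**
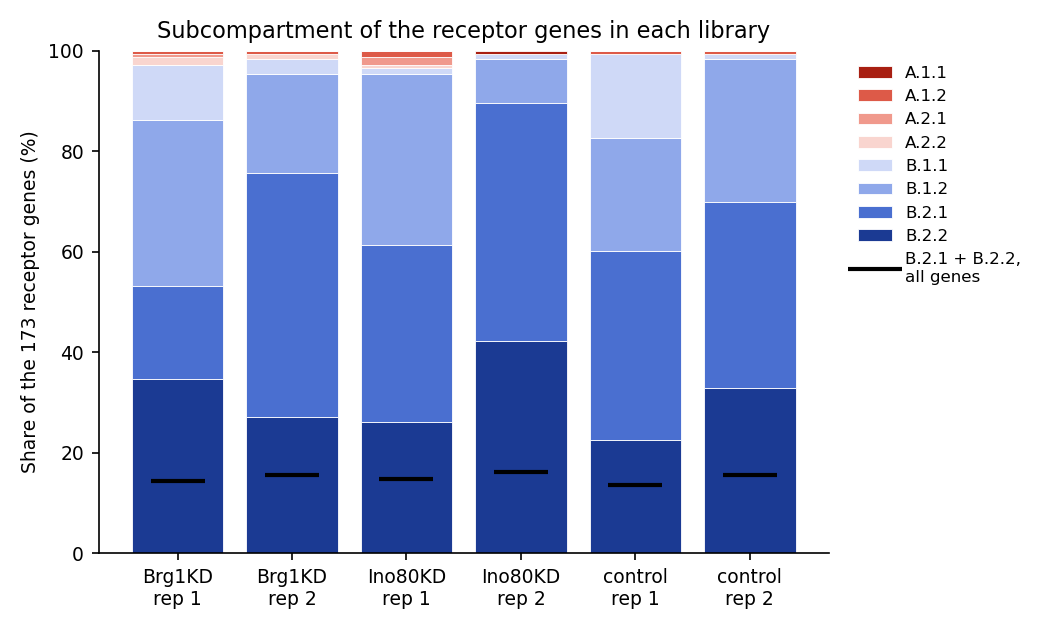
Stacked bars give the share (%) of the 173 receptor genes in each of the 8 subcompartments, 1 bar for each library of Brg1KD, Ino80KD and control cells, and the black marks give the share of all placed genes in B.2.1 and B.2.2 together. B.2 held 53.2% to 89.6% of the receptor genes, and in Brg1KD and Ino80KD the replicates lay farther apart than any pair of group means.

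Only 9 receptor genes were labelled A in any library, and 1 of them in all 6. That gene was Vmn1r1 on chromosome 1 (chr1:182157178-182158098, mm10), a V1R gene with no other member within 1 Mb. It had rank 7 and 7 in Brg1KD, 7 and 8 in Ino80KD and 7 and 7 in control cells, and the bins within 500 kb on either side of it averaged 6.55 or more in every group. The others were Vmn1r2, Vmn1r3, Vmn2r129, Vmn2r83, Vmn2r90 and the last 3 V1R genes of chromosome 13 (Vmn1r221 to Vmn1r223), all in B in at least 1 library. The share of receptor genes in A was 2.89% and 1.73% in the Brg1KD libraries, 3.47% and 0.578% in the Ino80KD libraries and 0.578% in both control libraries.

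The 173 genes fell into 18 clusters on 9 chromosomes when neighbours up to 1 Mb apart were joined, and 11 clusters with 4 or more members held 164 of them. The V1R genes lay mainly in 4 large clusters. Vmn1r4 to Vmn1r31 (28 genes, chr6:56923914-58472878) had the lowest mean rank of these, 1.18 and 1.39 in Brg1KD, 1.5 and 1.21 in Ino80KD and 1.00 and 1.11 in control cells. In this cluster all 28 genes were in B.2.2 in the first control library and 25 in the second, and the control values lay below those of both knockdowns with no overlap. The shifts of its mean rank were 0.232 for Brg1KD and 0.304 for Ino80KD, both against the same control libraries. This is a mean over genes that share long labelled segments, and it has no test. Most of these genes had the lowest rank in control cells, so they could only rise. Over all genes in B.2 in both control libraries the mean shift was 0.0760 in Brg1KD and 0.0502 in Ino80KD.

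The second V1R cluster of chromosome 6, Vmn1r32 to Vmn1r39 (8 genes), had mean ranks of 3 and 2.25 in Brg1KD, 2.12 and 2.00 in Ino80KD and 2.00 and 2.12 in control cells. Its Brg1KD values lay above all others, with most of the difference in batch 1. The third, Vmn1r40 to Vmn1r54 (15 genes), had mean ranks of 2.27 and 2.00 in Brg1KD, 2.00 and 1.00 in Ino80KD and 2.00 and 1.33 in control cells. Here the groups met at 2.00, and in the second Ino80KD library all 15 genes were in B.2.2. The V1R cluster of chromosome 13 is described below with the spread between replicates.

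Among the V2R genes, Vmn2r1 to Vmn2r7 on chromosome 3 (chr3:64078172-64719602) are the family C receptors, which are known to be expressed broadly in basal neurons together with other V2R genes. Their mean rank was 2.43 and 2.43 in Brg1KD, 3 and 2.43 in Ino80KD and 2.86 and 2.43 in control cells. All second replicates had the same value, and the groups overlapped. None of the 7 had groups that did not overlap in any of the 3 comparisons.

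The other V2R clusters sat at different depths of B. Vmn2r8 to Vmn2r17 on chromosome 5 (10 genes) had mean ranks between 1.5 and 2.00 in all 6 libraries, and Vmn2r120 on chromosome 17 was in B.2.2 in all 6. Vmn2r84 to Vmn2r87 on chromosome 10 (4 genes) were at 2.75 in 5 libraries and at 3 in the first Ino80KD library. Vmn2r80 to Vmn2r83, on the same chromosome, ranged from 2.00 in an Ino80KD library to 4.00 in a control library. Vmn2r19 to Vmn2r27 on chromosome 6 (9 genes) ranged from 1.11 in the second Ino80KD library to 2.22 in the first Brg1KD library, and Vmn2r111 to Vmn2r117 on chromosome 17 (7 genes) from 2 to 3, both of these in control cells. The lone genes Vmn2r18 (chromosome 5) and Vmn2r118 (chromosome 17) stayed within 1 class, in B.2.1 to B.1.2 and in B.2.2 to B.2.1. Vmn2r88 and Vmn2r89 on chromosome 14 were in B.1.2 in all libraries but the first of Brg1KD, where they were in B.1.1.

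**Figure D2:**
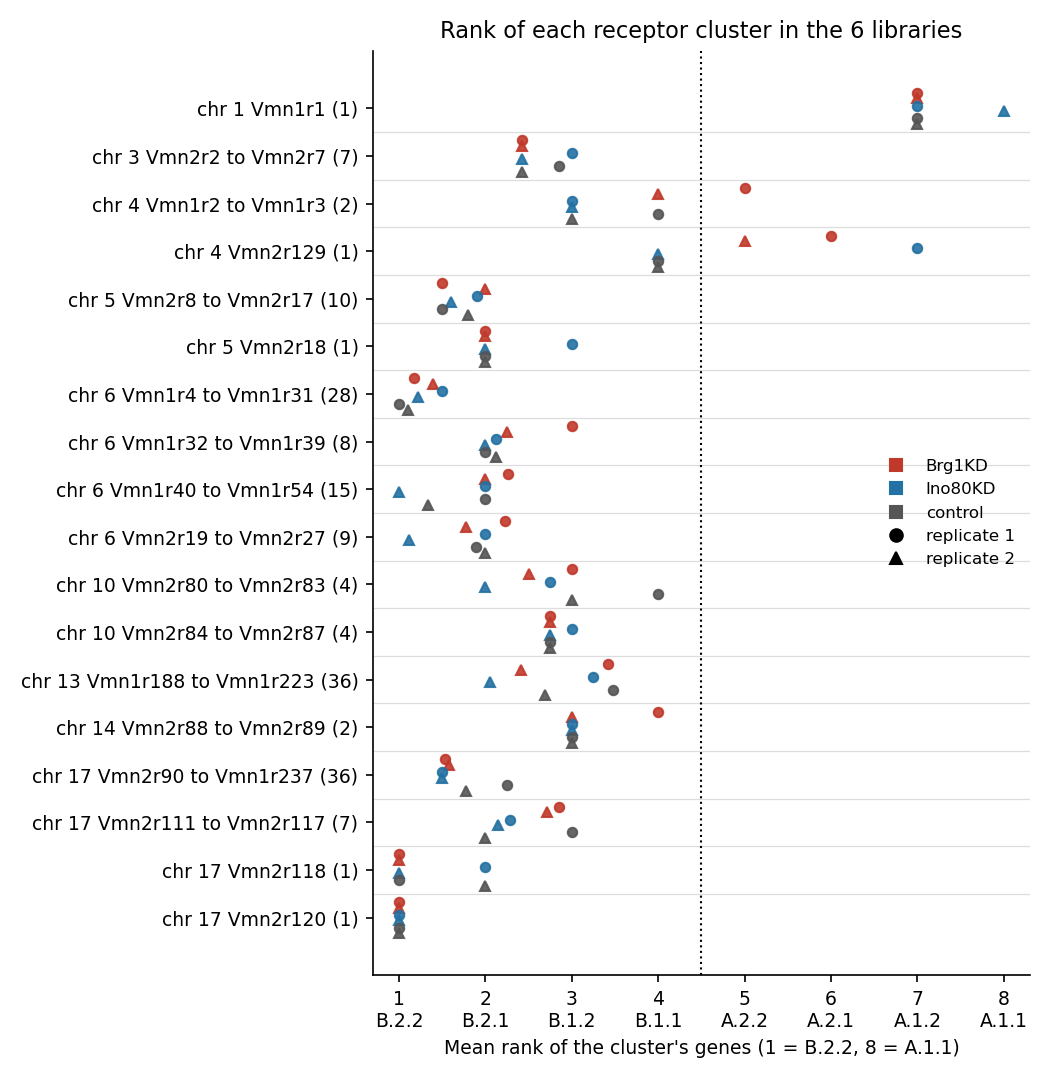
Each row is a receptor cluster with its chromosome and number of genes, and each point is the mean rank of its genes in a library (axis from 1, B.2.2, to 8, A.1.1; circles replicate 1, triangles replicate 2; the dotted line separates B from A). All clusters with 4 or more genes lay left of the line in every library, and the replicates of the chromosome 13 cluster lay apart in each group.

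Most clusters were pockets of lower rank than their surroundings. The mean rank of all bins between the first and last gene was set against the 500 kb on either side. It lay below both flanks in 8 of the 11 clusters with 4 or more genes in each of the 3 groups, and below the higher flank in all 11. The exceptions were Vmn2r1 to Vmn2r7, Vmn1r32 to Vmn1r39 and Vmn2r84 to Vmn2r87, whose lower flank was deeper in B. The higher flank of Vmn2r84 to Vmn2r87 was only 1 bin. Some differences were small, as for Vmn2r80 to Vmn2r83 in control cells, with 3.5 inside and 3.75 in the left flank. Around Vmn1r188 to Vmn1r223 on chromosome 13 the bins inside averaged 2.88 in Brg1KD, 2.79 in Ino80KD and 3.21 in control cells. Its left flank averaged 8.00 in Brg1KD, 7.85 in Ino80KD and 7.4 in control cells.

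The labels of the receptor genes were less repeatable than those of all genes or all bins. The receptor genes lay in only 30 to 36 labelled segments per library, so neighbouring genes are not separate observations. Other genes in B were not compared in this. Both replicates gave the same label to 49.7% of them in Brg1KD, 44.5% in Ino80KD and 53.8% in control cells. For all genes the shares were 73.5% in Brg1KD, 74.8% in Ino80KD and 72.8% in control cells. For all bins they were 68.3% in Brg1KD, 69.5% in Ino80KD and 68.9% in control cells. Where the labels of receptor genes differed, replicate 1 was mostly the higher. This held for 65 genes against 22 in Brg1KD, 87 against 9 in Ino80KD and 65 against 15 in control cells. Among all genes replicate 2 was the higher slightly more often in each group. Replicate 1 was higher in all 3 groups for 20 receptor genes (11.6%), against 0.952% of all genes, and replicate 2 was higher in all 3 for none of them, against 1.33% of all genes. Of the 20, 15 were V1R genes of the chromosome 13 cluster, 4 were in Vmn1r40 to Vmn1r54 and 1 in Vmn2r111 to Vmn2r117. Since the replicate number is the batch label, batch moved with these ranks, and its part in the differences between groups was not tested.

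The chromosome 13 cluster holds 36 V1R genes, Vmn1r188 to Vmn1r223, over 1162 kb (chr13:22087878-23250323). Its mean rank was 3.42 and 2.42 in Brg1KD, 3.25 and 2.06 in Ino80KD and 3.47 and 2.69 in control cells. Replicate 1 was above replicate 2 in every group, by 1.00, 1.19 and 0.778 classes, and the groups overlapped. Replicate 1 was the higher for 36 of 36 genes in Brg1KD, 34 in Ino80KD and 17 in control cells, and the lower for none. No member of this cluster had groups that did not overlap. The largest difference within it was at the right edge, where Vmn1r221 to Vmn1r223 had rank 4 and 3 in Brg1KD, 6 and 2 in Ino80KD and 4 and 2 in control cells.

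**Figure D3:**
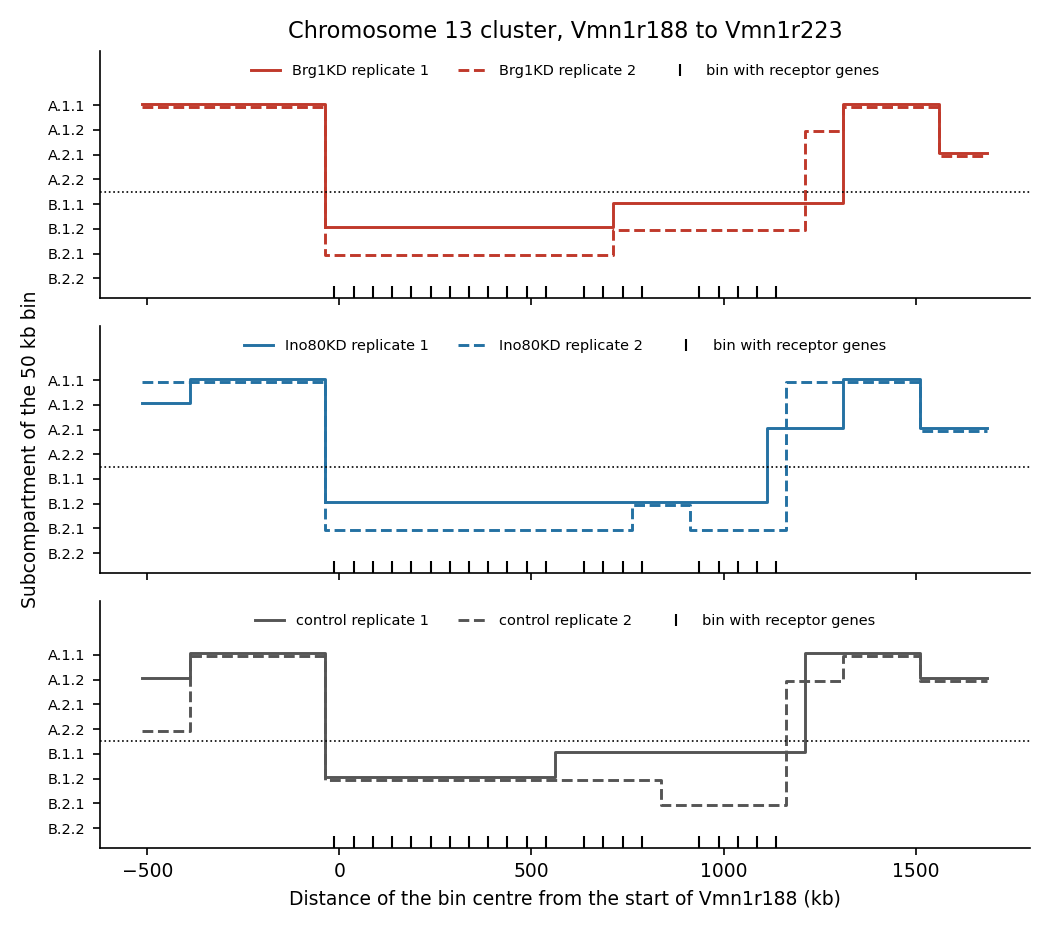
Subcompartment of each 50 kb bin along the V1R cluster of chromosome 13, by distance (kb) of the bin centre from the start of Vmn1r188, with a panel each for Brg1KD, Ino80KD and control cells (solid, replicate 1; dashed, replicate 2; ticks, bins with receptor genes; dotted line, border of B and A; lines are drawn slightly apart). The solid line runs at or above the dashed one over the receptor genes in every panel.

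Against control, the mean rank of the receptor genes in Brg1KD differed by -0.00867 classes, with a median of 0. It was higher for 65 genes, lower for 64 and equal for 44. Within batch 1 the mean shift was -0.0578 and within batch 2 it was 0.0405, so that its sign changed with the batch. Its sign also changed with the libraries used. It was -0.139 without the first and 0.121 without the second Brg1KD library, and 0.171 without the first and -0.188 without the second control library. Over all genes the mean was -0.00456, the median 0, and 20.3% were higher and 19.9% lower. The V1R genes averaged 0.106 and the V2R genes -0.181. Without the chromosome 17 cluster of Vmn2r90 to Vmn1r237, left out after the data were seen, the mean shift of the rest was 0.109. For the 161 receptor genes of chromosome 7, whose difference had led to the split, the mean shift was 0.394.

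Both Brg1KD libraries lay beyond both control libraries for 12 receptor genes, 2 higher and 10 lower. Over all genes the corresponding shares were 3.29% higher and 4.34% lower. Vmn2r129, a lone V2R gene of chromosome 4 (chr4:156331103-156339499), had rank 6 and 5 in Brg1KD, 7 and 4 in Ino80KD and 4 and 4 in control cells. It is a member labelled A in both Brg1KD libraries and B.1.1 in both control libraries, and its bin is next to the last labelled bin of the chromosome. The other higher gene was Vmn2r90, and all 10 lower genes lay in its cluster on chromosome 17. With batches paired, 26 receptor genes moved the same way within both batches, 12 higher and 14 lower, against 3.88% and 5.10% of all genes. Many of these share their labels with neighbouring genes, so they are not 26 separate observations.

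The chromosome 17 cluster holds 22 V2R and 14 V1R genes, Vmn2r90 to Vmn1r237, over 3611 kb (chr17:17703941-21314886). Its mean rank was 1.53 and 1.58 in Brg1KD, 1.5 and 1.5 in Ino80KD and 2.25 and 1.78 in control cells. Both knockdowns lay below both control libraries, with shifts of -0.458 classes for Brg1KD and -0.514 for Ino80KD, and they were set against the same control libraries. The differences were larger in batch 1 (-0.722 for Brg1KD and -0.750 for Ino80KD) than in batch 2 (-0.194 and -0.278). B.2.2 held 26 and 23 of the 36 genes in Brg1KD and 26 and 22 in Ino80KD, against 0 and 16 in control cells.

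Vmn2r90, the first V2R gene of this cluster (chr17:17703941-17734167), went the other way. It had rank 5 and 5 (A.2.2) in Brg1KD, 4 and 4 (B.1.1) in Ino80KD and 4 and 4 in control cells. Its bin lay in a stretch of 4 bins with these ranks that also held Has1, the gene of a hyaluronan synthase, and Spaca6, a sperm gene needed for fusion with the egg. The next bin held the formyl peptide receptor genes Fpr1 and Fpr2, which serve immune cells, and had rank 1 and 1 in Brg1KD, 4 and 4 in Ino80KD and 4 and 4 in control cells. The rank was thus 3 classes lower in Brg1KD than in control cells, beside a bin where it was 1 class higher, and the edge between them was sharper in both Brg1KD libraries than in the other 4.

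To the right of that edge lay a run of 6 V2R genes, Vmn2r124, Vmn2r91, Vmn2r92, Vmn2r94, Vmn2r93 and Vmn2r95 (chr17:18049484-18452324). All 6 had rank 1 and 1 in Brg1KD, 1 and 2 in Ino80KD and 2 and 2 in control cells. Fpr3 and Fpr-rs4, in the bins between Fpr2 and this run, had the same ranks, and Fpr-rs4 encodes a formyl peptide receptor of vomeronasal neurons. Vmn2r96 followed (chr17:18573255-18598157), with rank 1 and 1 in Brg1KD, 1 and 2 in Ino80KD and 4 and 2 in control cells. Its shift of -2 classes in Brg1KD, larger than that of any other receptor gene here, rested mostly on the rank in the first control library.

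Farther along, Vmn2r100 (chr17:19504811-19532060) had rank 1 and 1 in Brg1KD, 1 and 1 in Ino80KD and 3 and 2 in control cells. Its neighbours Vmn2r101 and Vmn2r102 had rank 1 and 1 in Brg1KD, 1 and 1 in Ino80KD and 2 and 2 in control cells. The 14 V1R genes, which fill the right part of the cluster, overlapped between Brg1KD and control throughout. The 10 lower genes lay in 4 runs of equal labels, so they are not 10 separate observations.

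**Figure D4:**
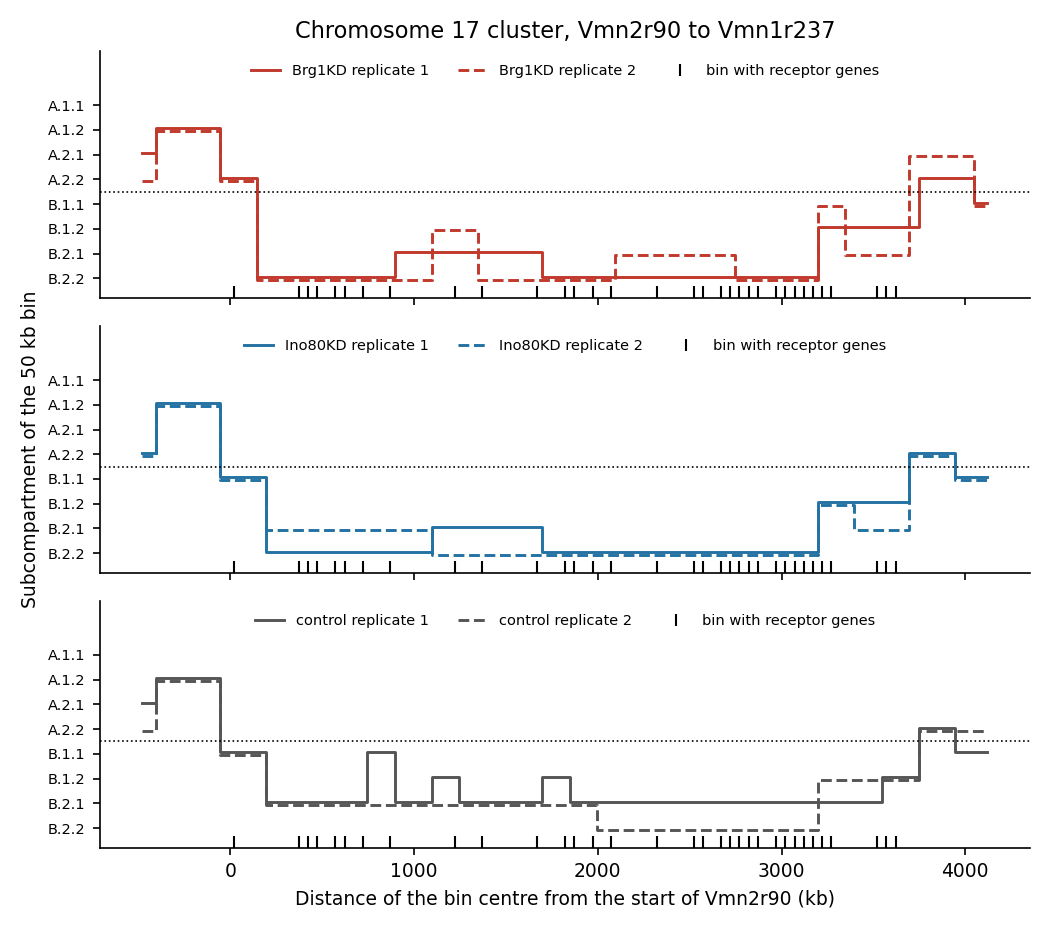
Subcompartment of each 50 kb bin along the chromosome 17 cluster, by distance (kb) of the bin centre from the start of Vmn2r90, with a panel each for Brg1KD, Ino80KD and control cells (solid, replicate 1; dashed, replicate 2; ticks, bins with receptor genes; dotted line, border of B and A; lines are drawn slightly apart). Both Brg1KD lines step from A.2.2 to B.2.2 just right of Vmn2r90, where the Ino80KD and control lines hold B.1.1 for 1 more bin.

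RefSeq promoters (250 bases before and 50 after the start, build GRCm38.p6) were read to see what members with these shifts share. They are shown for Vmn2r96, whose shift against control was the largest, for Vmn2r129 and Vmn2r13, the first by map position of the genes tied next at 1.5 classes, and for Vmn2r124 and Vmn2r100 of the chromosome 17 runs, added after their values were seen. They are written 5′ to 3′ along the gene. Capitals mark the longest run of at least 12 bases shared with another of the 5.
Vmn2r96 (chr17:18581477-18581776, plus strand): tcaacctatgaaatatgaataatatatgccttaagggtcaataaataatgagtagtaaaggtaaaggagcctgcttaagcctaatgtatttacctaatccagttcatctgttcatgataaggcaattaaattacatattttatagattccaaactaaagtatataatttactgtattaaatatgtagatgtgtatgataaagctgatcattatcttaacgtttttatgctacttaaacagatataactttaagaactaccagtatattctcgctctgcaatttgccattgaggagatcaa
Vmn2r124 (chr17:18049234-18049533, plus strand): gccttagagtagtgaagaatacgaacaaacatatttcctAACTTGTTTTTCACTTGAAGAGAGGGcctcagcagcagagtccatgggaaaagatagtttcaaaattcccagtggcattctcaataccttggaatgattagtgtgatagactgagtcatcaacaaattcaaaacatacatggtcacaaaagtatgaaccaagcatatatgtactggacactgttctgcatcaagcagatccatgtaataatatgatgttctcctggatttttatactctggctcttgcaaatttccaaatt
Vmn2r100 (chr17:19504561-19504860, plus strand): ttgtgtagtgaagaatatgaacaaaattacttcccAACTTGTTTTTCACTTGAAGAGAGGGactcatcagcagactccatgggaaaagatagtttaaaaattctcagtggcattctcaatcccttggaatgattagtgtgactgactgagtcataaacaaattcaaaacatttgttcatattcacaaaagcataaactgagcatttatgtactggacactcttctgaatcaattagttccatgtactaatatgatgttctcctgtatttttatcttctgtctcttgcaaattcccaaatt
Vmn2r129 (chr4:156330853-156331152, plus strand): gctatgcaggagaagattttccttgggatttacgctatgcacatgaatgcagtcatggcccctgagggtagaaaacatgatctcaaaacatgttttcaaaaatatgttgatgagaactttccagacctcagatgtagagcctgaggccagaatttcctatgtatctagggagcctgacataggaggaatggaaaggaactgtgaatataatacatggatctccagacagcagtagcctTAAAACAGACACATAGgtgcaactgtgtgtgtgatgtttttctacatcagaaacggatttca
Vmn2r13 (chr5:109192058-109192357, minus strand): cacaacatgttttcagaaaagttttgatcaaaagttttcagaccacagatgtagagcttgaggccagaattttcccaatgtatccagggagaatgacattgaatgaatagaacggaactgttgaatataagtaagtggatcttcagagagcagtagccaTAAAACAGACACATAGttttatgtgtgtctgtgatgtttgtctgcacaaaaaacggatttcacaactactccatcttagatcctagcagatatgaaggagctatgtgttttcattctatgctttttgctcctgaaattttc
Vmn2r124 and Vmn2r100 were identical at 86.2% of 304 aligned positions and shared an unbroken run of 26 bases, although their genes lie more than 1 Mb apart. The other 9 pairs were identical at 52.4% to 53.8% of positions in the same kind of alignment. Vmn2r129 and Vmn2r13, on different chromosomes, still shared a run of 16 bases. The start of Vmn2r96 in this table lies inside its gene span, and its window shared no such run.

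Promoters were matched for 158 of the 173 receptor genes. They were poor in G and C, with a mean GC content of 36.3% ± 4.66 (SD over 158 promoters), against 56.3% ± 11.7 over the 16308 promoters matched for all placed genes. The V1R promoters averaged 35.4% and the V2R promoters 37.6%. The median number of CpG dinucleotides was 1, against 14 in all promoters, and 34.2% of receptor promoters had none, against 4.93%. Only the window of Vmn2r100 had no CpG among the 5 shown.

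Repeated sequence was common among the receptor promoters. A run of 30 identical bases was shared with at least 1 other member by 93 of the 158, namely 44 V1R and 49 V2R promoters (73.1% of the V2R promoters). The letters TATAAA, searched on both strands, stood in 32.9% of receptor promoters, against 13.4% of all promoters, and among those shown in Vmn2r96 and Vmn2r124. The letters TAATTA, a core bound by homeodomain factors and the same on both strands, stood in 26.9% of V2R and 9.89% of V1R promoters, against 4.58% of all.  These letters can overlap each other, and they hold only A and T, in which the receptor windows were rich.

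In Ino80KD the receptor genes had a mean shift of -0.199 classes against control, with a median of -0.5. It was lower for 89 genes, higher for 30 and equal for 54, and negative in both batches (-0.116 in batch 1 and -0.283 in batch 2). With each of the 18 clusters counted once the mean shift was -0.0173. Over all genes the mean was -0.0245 and the median 0, with 19.8% lower and 15.9% higher. The V1R genes averaged -0.139 and the V2R genes -0.290. The library means overlapped between the groups. Without the second Ino80KD library the mean shift was 0.0636, and it was -0.462 without the first. Without the first control library it was -0.0202, and -0.379 without the second.

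Both Ino80KD libraries lay beyond both control libraries for 9 receptor genes, 3 higher and 6 lower, against 1.97% higher and 2.86% lower over all genes. As shares of the 173 these were 1.73% and 3.47%, close to those of all genes. The 3 higher genes were Vmn2r13, with rank 3 and 2 in Ino80KD against 1 and 1 in control cells, and Vmn1r27 and Vmn1r28, with 2 and 2 against 1 and 1. All 3 stayed within B. The 6 lower genes were Vmn2r100, Vmn2r101 and Vmn2r102, given above, and Vmn2r80, Vmn2r81 and Vmn2r82 on chromosome 10 (chr10:79148816-79396766), with rank 2 and 2 in Ino80KD against 4 and 3 in control cells. The same 3 chromosome 10 genes had rank 3 and 2, or for Vmn2r82 3 and 3, in Brg1KD and overlapped with control there. With batches paired, 18 genes moved the same way within both, 4 higher and 14 lower, against 2.13% and 3.30% of all genes. Many of the 18 share their labels with neighbouring genes, so they are not separate observations.

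limma, fitted on the ranks of all 47717 bins, called 0 receptor genes higher and 2 lower in Ino80KD, against 0.918% and 1.55% of all genes. At an unadjusted p below 0.05 it called 0 higher and 4 lower. Those called were Vmn2r101 and Vmn2r102 (adjusted p = 1.20e-07 by limma with Benjamini-Hochberg adjustment), whose bins had no spread between replicates in any group. A z test on the same fit, with a common variance for all bins, gave both an adjusted p of 0.362 and called no receptor gene. An exact permutation test of 2 against 2 libraries cannot give a p below 0.333.

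**Figure D5:**
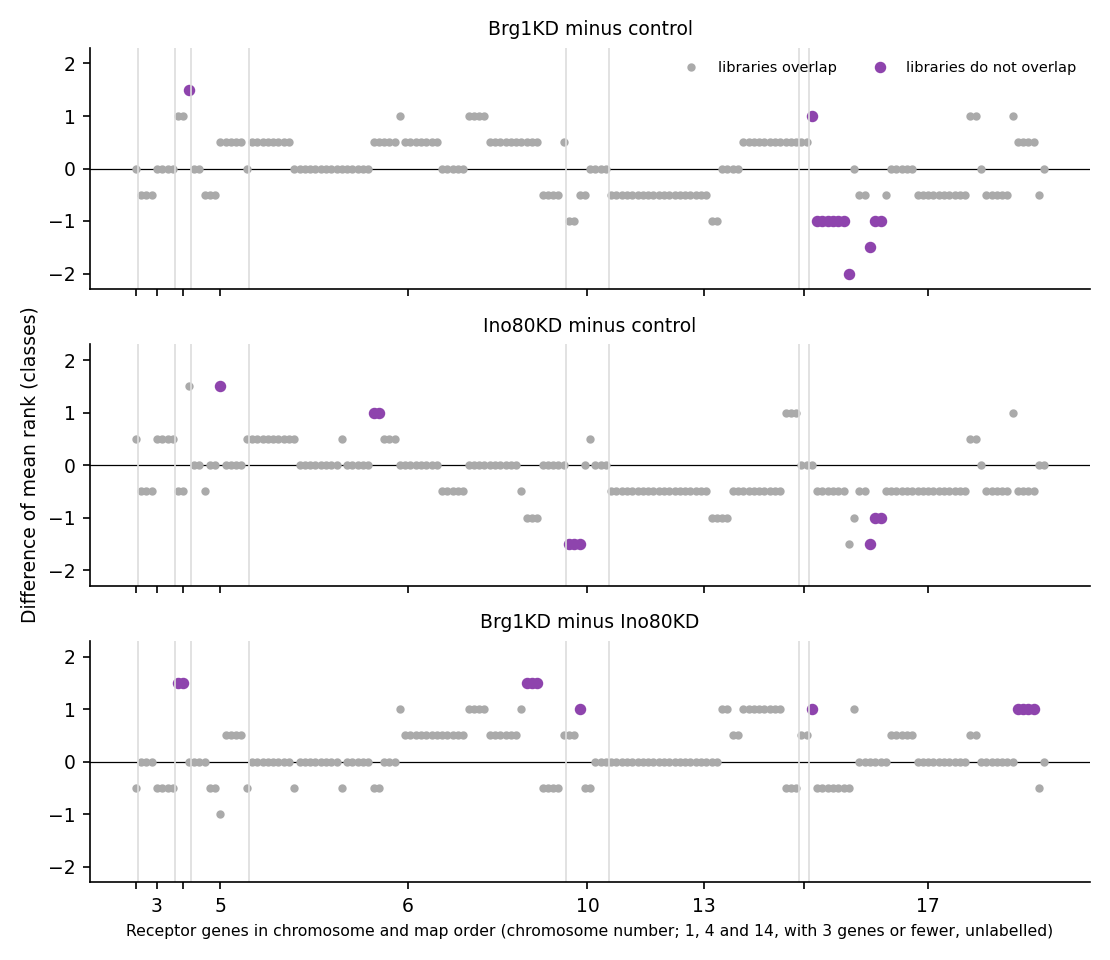
Each point is a receptor gene, in map order along the chromosomes, with the difference of its mean rank (classes) between Brg1KD and control, Ino80KD and control, and Brg1KD and Ino80KD cells; purple points are genes whose libraries do not overlap between the groups. Purple points number 12, 9 and 11, those below 0 lie on chromosomes 10 and 17, and neighbouring points often share a value.

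Set against each other, Brg1KD was on average 0.191 classes above Ino80KD over the receptor genes, with a median of 0, by 0.0578 within batch 1 and 0.324 within batch 2. It was higher for 64 genes and lower for 30. Over all genes the mean was 0.0200. Both Brg1KD libraries lay above both Ino80KD libraries for 11 receptor genes (6.36%) and below for 0, against 3.95% above and 3.23% below over all genes. The mean difference was 0.454 without the first Ino80KD library and -0.0723 without the second. It was 0.0607 without the first Brg1KD library and 0.321 without the second. Without the second Ino80KD library, more receptor genes lay below without overlap than above. With batches paired, 26 genes were higher and 0 lower in both batches, against 4.60% and 3.59% of all genes. Among the 26 were runs with equal labels, such as Vmn1r213 to Vmn1r220 (8 genes), Vmn1r45 to Vmn1r48 and Vmn2r114 to Vmn2r117 (4 each). They are thus not 26 separate observations.

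These 11 genes lay in 5 runs. Vmn1r2 and Vmn1r3, a V1R pair near the centromeric end of chromosome 4, had rank 5 and 4 in Brg1KD and 3 and 3 in Ino80KD. Vmn2r20 to Vmn2r22 on chromosome 6 had 3 and 3 in Brg1KD and 2 and 1 in Ino80KD. Vmn2r82 had 3 and 3 in Brg1KD and 2 and 2 in Ino80KD, and Vmn2r90 had 5 and 5 in Brg1KD and 4 and 4 in Ino80KD. The last run was Vmn2r114 to Vmn2r117 on chromosome 17 (chr17:23290934-23479597), with 3 and 3 in Brg1KD and 2 and 2 in Ino80KD. It includes Vmn2r116, the receptor for the male tear pheromone ESP1. Its 4 genes had 3 and 2 in control cells, so neither knockdown was separate from control there.

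Of these, limma called only Vmn2r90 (adjusted p = 9.78e-08 by limma with Benjamini-Hochberg adjustment; higher in 2 of 2 libraries), against 1.42% of all genes called higher, and it called 0 lower, also at an unadjusted p below 0.05, against 1.31%. With a common variance the adjusted p of Vmn2r90 by the z test was 0.269. Its bin had no spread between replicates in any group.

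Chromatin loops were deposited as 1 merged list per group, of 10 kb anchors with no value per loop, so they have no replicate check. The lists held 5848 loops in Brg1KD, 5330 in Ino80KD and 5758 in control cells on the autosomes. An anchor within a receptor cluster was found for 7 loops in Brg1KD, 9 in Ino80KD and 9 in control cells. The clusters held 0.825 anchors per Mb in Brg1KD, 1.01 in Ino80KD and 1.1 in control cells, against 4.90 in Brg1KD, 4.47 in Ino80KD and 4.83 in control cells over all autosomes. In bins that were B.2 in all 6 libraries the density was 1.80 in Brg1KD, 1.48 in Ino80KD and 1.65 in control cells. The clusters held 9 anchors in Brg1KD, 11 in Ino80KD and 12 in control cells. With their spans widened by 50 kb on each side the density was 1.81 in Brg1KD, 1.97 in Ino80KD and 1.97 in control cells, so that it lay below that of B.2 bins by the first spans and above it by the widened ones.

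Loops spanned the chromosome 13 cluster and parts of others. The chromosome 13 V1R cluster was spanned from end to end by a loop of 1170 kb in Ino80KD (anchors chr13:22070001-22080000 and chr13:23240001-23250000, the second on Vmn1r223). The control list held it as a loop of 1150 kb, with anchors on Vmn1r188 and Vmn1r222. The Brg1KD list had no loop with both anchors within 20 kb of these. Part of the 1549 kb cluster Vmn1r4 to Vmn1r31 was spanned by a loop of 730 kb in Ino80KD and 740 kb in control cells. Its left anchor was at chr6:56810001-56820000, and it had no counterpart in Brg1KD by the same tolerance. A shorter loop with its left anchor there or in the next 10 kb was in both knockdown lists (260 kb in Brg1KD, 250 kb in Ino80KD). The control list did not hold it by the same tolerance.

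On chromosome 17 some loops had an anchor near Vmn2r90 or Fpr2. Both knockdown lists held a loop of 350 kb (Brg1KD) or 340 kb (Ino80KD) ending at chr17:17740001-17750000, just right of Vmn2r90, and a loop of 120 kb (Brg1KD) or 130 kb (Ino80KD) with an anchor on Fpr2 at chr17:17890001-17900000. The control list had neither within 20 kb. A loop of 240 kb with an anchor on Vmn2r96 was in all 3 lists, and loops from within Vmn2r1 to Vmn2r7 and Vmn2r19 to Vmn2r27 were only in the control list. Whether presence in a list differs beyond the error of calling was not tested.

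The signalling and transcription factor genes that work with these receptors were mostly in A, unlike the receptor genes. For the signalling genes the share in A was 78.6% in Brg1KD, 78.6% in Ino80KD and 71.4% in control cells. Over all genes it was 71.8% in Brg1KD, 71.3% in Ino80KD and 71.9% in control cells. Of 7 vomeronasal signalling genes, Trpc2, the cation channel of the transduction cascade, and Gnai2 were at rank 8 in all 6 libraries. Gnao1 had rank 4 and 5 in Brg1KD, 4 and 5 in Ino80KD and 4 and 4 in control cells, and Ano2 was in B in all 6. Of the 7 genes, 0 had groups that did not overlap in either knockdown against control. Ano1, a calcium-activated chloride channel, had rank 5 and 5 in Brg1KD, 6 and 6 in Ino80KD and 5 and 6 in control cells, and was the only gene of its list that did not overlap between the knockdowns. Of 7 vomeronasal transcription factor genes, among them Bcl11b and Tfap2e, 0 had groups that did not overlap in any comparison.

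Of the 8 class I MHC genes of the H2-M group, which are expressed with V2R genes in basal neurons, 6 had rank 3 in replicate 1 and rank 2 in replicate 2 of every group, the batch pattern seen in the chromosome 13 cluster, and 0 had groups that did not overlap. Of the 7 formyl peptide receptor genes, which lie among the chromosome 17 receptors, 4 were lower without overlap in Brg1KD against control. Over all genes this share was 4.34%. In Ino80KD against control 0 did not overlap. In Brg1KD against Ino80KD 2 (Fpr1 and Fpr2) were lower without overlap, against 3.23% of all genes. For both, limma with Benjamini-Hochberg adjustment also called Brg1KD lower than Ino80KD, against 1.31% of all genes. Both lie in 1 bin, which had no spread between replicates in any group. Of 15 trace amine receptor genes (Taar) 0 had groups that did not overlap in any comparison. Of 35 bitter taste receptor genes (Tas2r), 18 were higher without overlap in each knockdown, against the same control libraries. Genes that share a labelled segment are not separate observations, and the segments that hold these 18 were not counted. Over all genes 3.29% were higher without overlap in Brg1KD and 1.97% in Ino80KD.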

How the data were processed

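The 6 Hi-C libraries came from E14 stem cells, with 2 for each of Brg1KD, Ino80KD and control. Per the submitters' processing notes, BWA, SAMtools, Juicer 2.0, HOMER and bedtools were used with build mm10. The callers of subcompartments and of loops are not given in the sources used here. Each deposited subcompartment file gives segments with a label and a score in 8 equal steps, which was read as ranks 1 to 8. Depth is unknown. The loop lists, deposited 1 per group, hold positions only and were taken as pooled.

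Genes were taken from RefSeq (GRCm38.p6) and placed by midpoint in 50 kb bins, of which 47717 had a rank in all 6 libraries. Groups were said not to overlap where both libraries of one lay beyond both of the other, a count that needs no model. limma 3.58.1 in R 4.3.3 was fitted over all bins as a second call at an adjusted p of 0.05. Tested on simulated ranks, it called too many unchanged bins, and 18941 bins of the data had no residual spread, so its calls are given only beside the share of all genes called. A z test on the same fit, with a variance common to all bins, gave fewer such calls. No 2 libraries were identical.

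The labels name the replicate number as batch, so that it pairs the libraries. Deviations from the group means correlated across bins between same-numbered libraries by 0.0984 (Brg1KD and control), 0.102 (Ino80KD and control) and 0.0885 (Brg1KD and Ino80KD). Loops were matched where both anchors lay within 20 kb. Promoters were searched with biopython 1.88.

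The members, gene lists and tests were chosen with earlier results of these data known. Named were the first and last gene of each cluster, the genes with the largest shifts, those whose groups did not overlap, Vmn2r1 to Vmn2r7, and called genes of the pathway lists. Other genes named from those lists were chosen after their values were seen. Alternatives covered gene placement, weighting by bin or cluster, borders, percentiles, batch blocks, the variance model, the libraries fitted and each library left out. The 4 fibroblast marker genes, a list for another cell type, had 0 genes without overlap in any comparison. Protein sequences were not used here.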

Additional observations from a re-analysis of the deposited data

Results flagged for a closer look

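Vmn2r90, the first V2R gene of the chromosome 17 cluster, was singled out because limma called it between Brg1KD and Ino80KD, which share control libraries. The adjusted p below is thus the value that chose the gene, and it is no further support. The bin of Vmn2r90 had no spread between replicates in any group. The difference between the knockdowns was 1 class, with rank 5 and 5 in Brg1KD against 4 and 4 in Ino80KD, and rank 4 and 4 in control cells. limma with Benjamini-Hochberg adjustment gave an adjusted p of 9.78e-08 for it (higher in 2 of 2 libraries). The z test with a common variance gave an adjusted p of 0.269. Vmn2r90 is 1 of 11 receptor genes with Brg1KD above Ino80KD without overlap, and the only one that limma called. Of the 11, Vmn1r2, Vmn1r3 and Vmn2r20 to Vmn2r22 had a larger difference, of 1.5 classes. The bin of Vmn2r90 is 1 of 4 neighbouring bins with the same ranks, and another of them holds Spaca6 and Has1.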

How the results depend on the processing

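With 2 libraries per group and 8 classes, small counts moved with the settings. The mean shift between Brg1KD and control, -0.00867, was 0.145 with each cluster counted once, 0.0940 with ranks as percentiles and 0.109 without the chromosome 17 cluster, the last setting added after the data were seen. That between Ino80KD and control, -0.199, was -0.0173 with each cluster counted once. Leaving out each library in turn gave -0.188 to 0.171 for Brg1KD against control, -0.462 to 0.0636 for Ino80KD against control and -0.0723 to 0.454 for Brg1KD against Ino80KD. For groups without overlap, leaving a library out sets 1 library against 2, which makes separation easier by construction. In each comparison the balance of higher and lower genes then reversed with at least 1 library left out. In the same order, the receptor genes without overlap, 12, 9 and 11, became 32 to 57, 11 to 60 and 27 to 53. With the replicate block (same direction within both batches) they were 26, 18 and 26, and the blocked mean shifts were -0.0578 and 0.0405, -0.116 and -0.283, and 0.0578 and 0.324 in batches 1 and 2. limma called 3 (1.49% of all genes called higher and 1.99% lower), 2 and 1 receptor genes, the first a description only, and 10, 7 and 7 with the replicate block (higher and lower together), against 1.59% and 2.21%, 0.937% and 1.65%, and 1.52% and 1.45% of all genes called higher and lower. With only the 4 libraries compared limma called 4 and 6, against 1.52% and 2.37%, and 2.97% and 2.36% of all genes. With each library left out it called 8 to 24, 4 to 27 and 6 to 14, against 5.94% to 9.3%, 3.89% to 8.32% and 5.33% to 8.26% of all genes. With a common variance, the z test called 0 and 0, against 0.422% and 0.319%, and 0.545% and 0.569% of all genes. The share of members in A in control cells was 0.741% with each bin counted once, and stayed at 0.578% with either control library left out. That in Brg1KD lay between 1.73% and 2.89% and that in Ino80KD between 0.578% and 3.47% with a library left out. Loops with an anchor in a cluster numbered 20 in Brg1KD, 22 in Ino80KD and 20 in control cells with spans widened by 50 kb, and 2, 2 and 3 with both anchors in the same cluster. Of all alternatives, 61 values moved past the limits set and 53 did not. In each comparison the mean shift changed sign with at least 1 library left out. Depth is unknown, so what it limits could not be assessed.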

Other observations

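The gene table also held 150 placed entries with vomeronasal receptor symbols on the same chromosomes that are pseudogenes and so lay outside the rule. Of these, 118 were in B in all 6 libraries. Their mean rank was 2.93 in Brg1KD, 2.79 in Ino80KD and 2.93 in control cells, higher than that of the protein-coding members in each group. The mean shift was 0.00667 classes in Brg1KD and -0.137 in Ino80KD, against the same control libraries. Among the 80 in bins without a protein-coding member, 52 were in B in all 6 libraries.

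Against control, 6 of the 150 pseudogenes were higher and 2 lower without overlap in Brg1KD, against 3.29% and 4.34% of all genes. In Ino80KD 6 were higher and 3 lower, against 1.97% and 2.86% of all genes. The 2 lower in Brg1KD were Vmn2r-ps114 and Vmn2r-ps121 on chromosome 17. Vmn1r-ps136 on chromosome 14 had rank 8 and 8 in Brg1KD, 7 and 7 in Ino80KD and 7 and 7 in control cells, all in A. Vmn2r-ps17 on chromosome 4 had rank 5 and 5 in Brg1KD, 5 and 5 in Ino80KD and 4 and 4 in control cells, in A in the knockdowns and in B in control. Vmn1r-ps136 and Vmn2r-ps17 were chosen after their values were seen, and no test was run on the pseudogenes.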
